A study of Arabidopsis thaliana with 36 samples.

Results

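Cytochrome P450 transcripts were followed in 10 genes, which were those of 23 P450 genes with a probe set of their own whose log2 value was 5 or higher on 3 or more of the 36 arrays. A gene counted as a P450 where the array annotation gave its probe set a single gene symbol beginning with CYP, digits and a letter. All 10 were covered by 1 probe set each, out of 12635 probe sets that passed the same filter and 22810 on the array. The annotation used here names part of the family: RefSeq lists 236 genes with such a symbol, so most P450 genes of the plant were not analysed here, and 2 further probe sets that name several genes were left out. Of the 23 genes 19 belong to the subfamily CYP71B, and of the 10 that passed 9 are CYP71B genes and 1, CYP78A9, belongs to family 78.

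P450s are haem-containing monooxygenases that use molecular oxygen to modify small molecules, and in plants most are anchored in the endoplasmic reticulum and take electrons from an NADPH-dependent reductase. They serve the synthesis and turnover of hormones, pigments, cuticle lipids and defence compounds. A P450 name gives the family by its number and the subfamily by its letter. CYP71B is a large Arabidopsis subfamily whose genes often lie side by side, and its best known member, PAD3 (CYP71B15), completes the synthesis of the defence compound camalexin.

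The plants were Arabidopsis thaliana of the Columbia background that overexpress CIRCADIAN CLOCK ASSOCIATED 1 (CCA1-ox), a transcription factor of the circadian clock, and every group carried this transgene. Wild-type plants and the level of CCA1 were not analysed here, the labels do not give the promoter of the transgene or the number of lines, and no value below separates the transgene from the daily cycle. Aerial parts of 10-day-old plants, kept on sucrose agar in days of 16 h light and 8 h dark, were taken at lights on (6am) and at 12pm, 6pm and 12am. RNA of each harvest was separated into large polysomal, small polysomal and non-polysomal RNA, that is RNA with many ribosomes, with few, and with none or nearly none, which gave 12 groups of 3 replicates. The labels do not say whether replicates were separately grown, so the p-values speak only for the spread seen among these arrays, part of which may be technical.

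Values are log2 expression values that the authors normalized with GCRMA, which gives arrays a common scale, so a difference between fractions is a share relative to other transcripts and not an amount of RNA. The lowest value in the table was 2.15, and differences between values near that end are compressed. Replicate arrays of a group correlated with r between 0.961 and 0.996, and precision is limited by their number. The tissue label was checked with 16 leaf marker genes, of which 5 had a named probe set. All 5 passed the filter, and their summed linear signal ran from 14.9 to 16.3 in log2 units over the 36 arrays. Of 18 root markers 3 were named, of which the root hair genes EXPA7 and EXPA18 never exceeded 2.16 and 2.23, while PYK10, a beta-glucosidase of endoplasmic reticulum bodies, ran from 10.4 to 12.5. In bulk tissue of this kind fewer cells of a type and less RNA per cell cannot be told apart.

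The 13 genes that missed the filter were mostly at the lower end of the scale on every array. Of these, 10 never exceeded 2.33, and CYP71B38 and CYP51G2 were at the lowest value of the table on 36 of 36 arrays. The group included CYP79A2, which forms phenylacetaldoxime, with a highest value of 2.16, and CYP71B31, which oxidises linalool in flowers, also with a highest value of 2.16. The gene nearest the filter from outside was CYP84A4, of the arabidopyrone pathway, which reached 5 on 1 array with a highest value of 5.19. CYP71B23 and CYP71B36 had highest values of 3.97 and 3.26. Among the 13, CYP51G2 and CYP71B27 are classed by RefSeq as transcribed pseudogenes. Just inside the filter stood CYP71B29 with 4 arrays at 5 or more, CYP71B24 with 7 and CYP71B37 with 12. A gene that passes through a few arrays of some groups had to be higher in those groups, so the differences of these 3 genes, and of CYP78A9 with 18 arrays at 5 or more, are partly set by the filter.

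**Figure D1:**
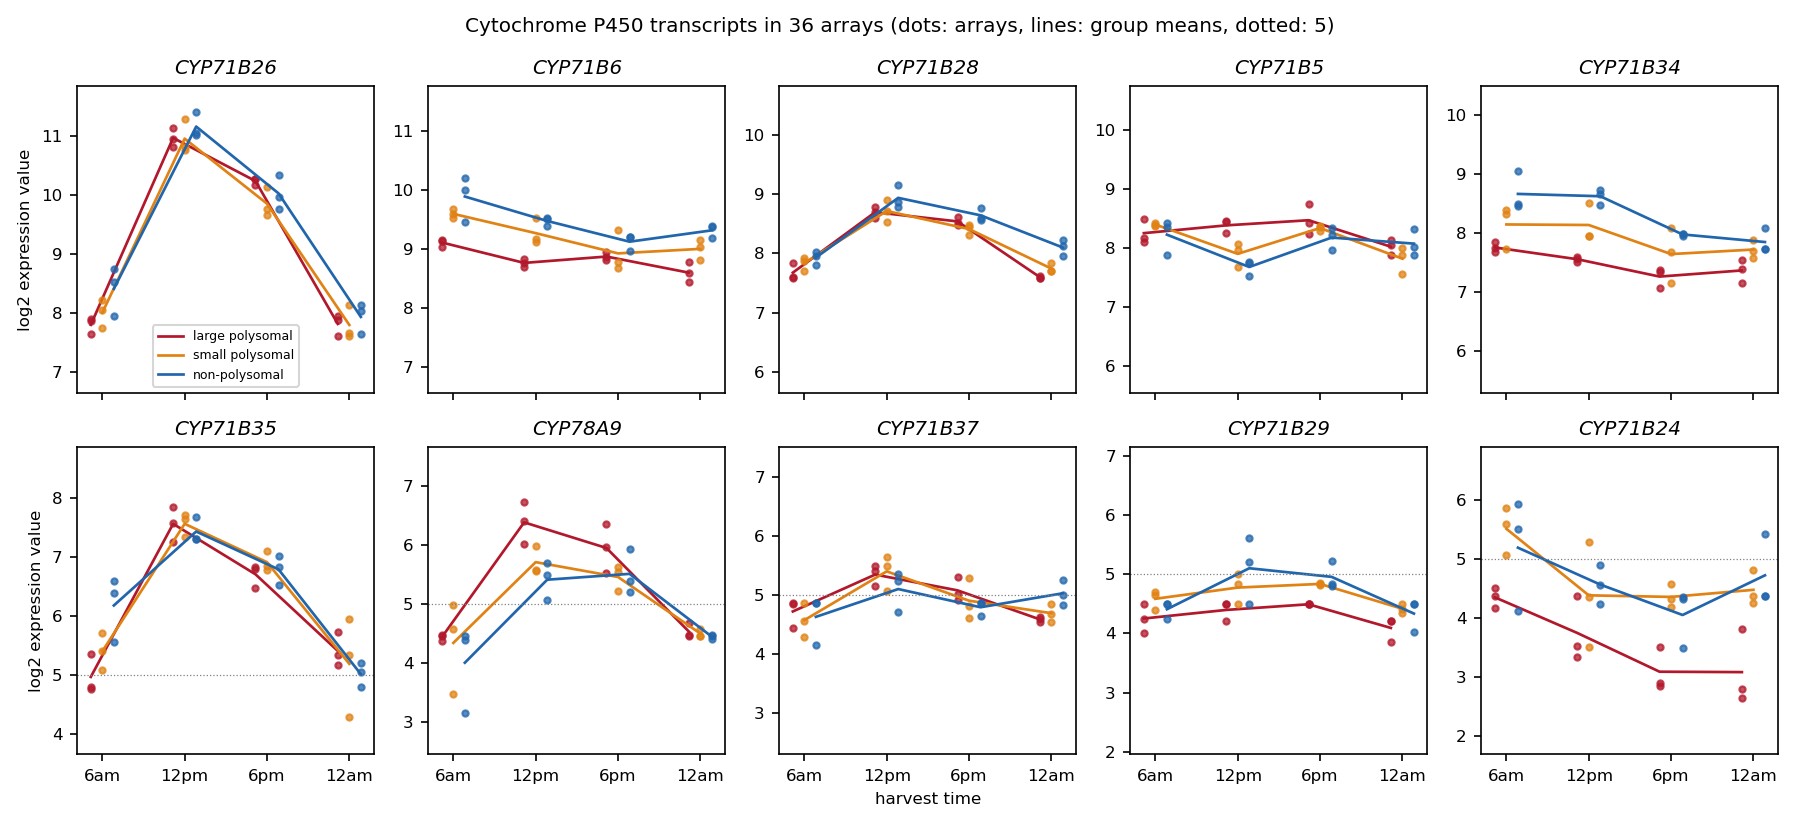
Log2 expression value (y axis, same span in every panel, different start) of the 10 P450 genes by harvest time (x axis). Dots are the 36 arrays, lines join the means of 3 replicates, colours give the fraction and the dotted line marks the filter at 5. CYP71B26 is near 11 at 12pm and near 8 at 6am and 12am in all 3 fractions, and the large polysomal values of CYP71B34 lie below its non-polysomal values at each time.

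Across the 4 times together, 5 of the 10 P450 transcripts were called less abundant on large polysomes than in non-polysomal RNA, 2 were called more abundant and 3 were not called. Between these fractions 7 of 10 genes differed at an adjusted p under 0.05, at a background of 80.1% of all probe sets tested. CYP78A9 and CYP71B5 were higher on large polysomes, against 42.3% of all probe sets, and CYP71B24, CYP71B34, CYP71B6, CYP71B29 and CYP71B28 were lower, against 37.8%. The median log2 difference was -0.23 over the 10 genes and 0.05 over all probe sets tested. With so high a background the count by itself is not a result about P450s, and CYP71B24 and CYP71B29 entered the test through small polysomal and non-polysomal arrays alone. The sizes were moderate: the 10 differences ran from -1.07 to 0.48, while the 5th and 95th percentiles of all probe sets were -1.53 and 1.70.

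CYP71B6 converts indole-3-acetonitrile into indole-3-carbaldehyde and indole-3-carboxylic acid, which are defence-related indoles, and was the one named member of the camalexin and indole defence list. At 6am it had 9.04, 9.14 and 9.16 in large polysomal RNA, against 10.01, 9.46 and 10.21 in non-polysomal RNA. At 12pm the values were 8.84, 8.69 and 8.77 in large polysomal RNA, against 9.51, 9.40 and 9.53 in non-polysomal RNA. At 12am they were 8.78, 8.44 and 8.59 in large polysomal RNA, against 9.19, 9.40 and 9.37 in non-polysomal RNA. At 6pm the values were 8.95, 8.81 and 8.87 in large polysomal RNA, against 9.21, 8.97 and 9.20 in non-polysomal RNA. The mean difference was smallest there, at -0.25, and the ranges nearly touched. The fractions did not overlap at any of the 4 times, and large polysomal RNA was lower in 12 of 12 extracts. The log2 difference was -0.61 ± 0.08 (SE of the fit), or 1.53-fold lower on large polysomes (adjusted p = 8.8e-08). Small polysomal RNA lay between them, with means of 8.84 in large polysomal, 9.20 in small polysomal and 9.46 in non-polysomal RNA over 12 arrays each.

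CYP78A9 belongs to the family of KLUH, an enzyme that promotes organ growth, and is itself known to promote growth of fruits and seeds. At 12pm it had 6.73, 6.03 and 6.41 in large polysomal RNA, against 5.49, 5.69 and 5.07 in non-polysomal RNA, and the ranges did not overlap. At 6pm it had 5.54, 6.37 and 5.96 in large polysomal RNA, against 5.94, 5.21 and 5.40 in non-polysomal RNA, and they did. At 6am and 12am all its values were below 5, and 9 of the 36 values lay within 0.01 of 4.47, of which 3 were from 6am and 6 from 12am. Values shared in this way carry no order, so the fractions could be set against each other mainly at 12pm and 6pm. Over the 4 times the log2 difference was 0.48 ± 0.15 (SE, adjusted p = 0.0042), or 1.40-fold higher on large polysomes, with the higher value in large polysomal RNA in 9 of 12 extracts. These 9 include the first 6am extract (0.004) and the second 12am extract (0.06), which hardly differed. The 6am extracts differed by 0.004, 1.31 and -0.02, and the 1.31 rests on a single non-polysomal value of 3.16.

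CYP71B34 was lower on large polysomes at every time. It had 7.51, 7.60 and 7.56 in large polysomal RNA at 12pm, against 8.73, 8.48 and 8.66 in non-polysomal RNA. At 6pm it had 7.07, 7.34 and 7.38 in large polysomal RNA, against 7.96, 7.99 and 7.98 in non-polysomal RNA. The 2 fractions did not overlap at 6am and 12am either, and the order held in 12 of 12 extracts. The log2 difference was -0.79 ± 0.10 (SE, adjusted p = 2.5e-08), or 1.73-fold lower. At single times CYP71B34 was called lower at 6am, 12pm, 6pm and 12am, with log2 differences of -0.91, -1.07, -0.71 and -0.48. The background of calls at single times was 57%, 61.9%, 61.2% and 59.9% of all probe sets, in that order of times, and the P450 genes called were 4, 5, 3 and 4.

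CYP71B24 is given as a description, since all 7 of its arrays at 5 or more were small polysomal or non-polysomal and 0 of its 12 large polysomal arrays reached 5, so the filter favoured a lower value on large polysomes. At 12am it had 3.81, 2.81 and 2.64 in large polysomal RNA, against 5.43, 4.38 and 4.37 in non-polysomal RNA, with no overlap. At 6am it had 4.38, 4.50 and 4.17 in large polysomal RNA, against 5.51, 4.13 and 5.94 in non-polysomal RNA, where the second extract ran the other way. Large polysomal RNA was lower in 11 of 12 extracts, and the log2 difference was -1.07 ± 0.20 (SE). Small polysomal RNA was not set apart from non-polysomal RNA for this gene (0.05 ± 0.20), and large against small polysomal RNA differed by -1.11 ± 0.20.

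The neighbouring genes CYP71B28 and CYP71B29 also had lower values on large polysomes. CYP71B28 was lower in 12 of 12 extracts, with means of 8.13 in large polysomal RNA and 8.41 in non-polysomal RNA (n = 12 arrays each) and a log2 difference of -0.28 ± 0.06 (SE, adjusted p = 2.3e-04). CYP71B29 differed by -0.39 ± 0.10 (SE), again as a description: its 4 arrays at 5 or more were small polysomal or non-polysomal, and 0 of 12 large polysomal arrays reached 5. Of its 36 values 13 lay within 0.01 of 4.50, and 11 of its 12 group means were below 5.

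CYP71B5 was the other gene higher on large polysomes, by 0.24 ± 0.08 (SE, adjusted p = 0.0089), in 9 of 12 extracts. At 12pm it had 8.46, 8.44 and 8.26 in large polysomal RNA, against 7.74, 7.53 and 7.77 in non-polysomal RNA, with no overlap. At 12am it had 8.14, 8.05 and 7.88 in large polysomal RNA, against 8.33, 8.02 and 7.87 in non-polysomal RNA, and the ranges overlapped. Without replicate 2 at all times its difference was 0.11 and was no longer called (adjusted p = 0.37). The call was also lost when arrays were centred on their medians, at a difference of 0.15 (adjusted p = 0.087 in limma).

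No difference between large polysomal and non-polysomal RNA was called for CYP71B26, CYP71B35 or CYP71B37. CYP71B26 differed by -0.18 (95% interval -0.38 to 0.03), CYP71B35 by -0.19 (-0.48 to 0.10) and CYP71B37 by 0.05 (-0.17 to 0.26). The replicate numbers were taken to pair the fractions of an extract, and with the extract as a block CYP71B26 was called (adjusted p = 0.043), which made 8 of 10. The share of all probe sets called with the block was not counted, so the background above does not apply to this count. Leaving out the first 6am non-polysomal array also gave CYP71B26 a call, at a difference of -0.24. In limma it was called as well after median centring (-0.27, adjusted p = 0.014) and after quantile normalization (-0.23, adjusted p = 0.042). Whether CYP71B26 and CYP71B5 were called thus depended on the normalization.

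**Figure D2:**
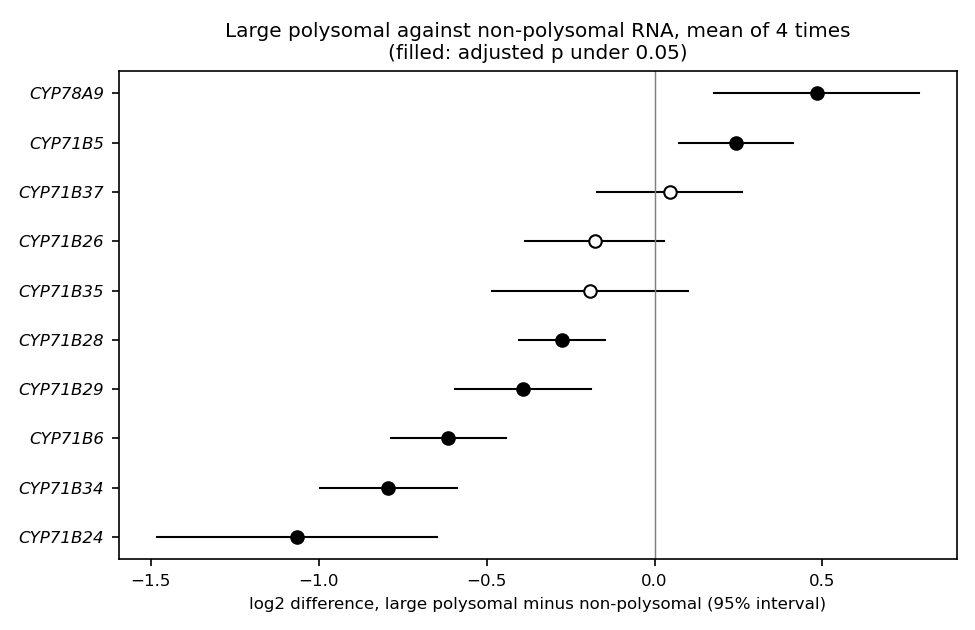
Log2 difference of large polysomal minus non-polysomal RNA, averaged over the 4 times (x axis), for the 10 P450 genes (rows). Points are estimates of the linear model, bars 95% intervals, and filled points have an adjusted p under 0.05. CYP78A9 and CYP71B5 lie right of 0, and 5 genes from CYP71B28 at -0.28 to CYP71B24 at -1.07 lie left of it.

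Between small polysomal and non-polysomal RNA 4 of 10 genes were called, at a background of 68.3%. CYP71B34 (-0.37), CYP71B6 (-0.25), CYP71B26 (-0.23) and CYP71B28 (-0.23) were lower on small polysomes (31.6% of all probe sets), and 0 genes were higher (36.7%), in limma at an unadjusted p under 0.05 as well. Without replicate 2, or without replicate 3, 1 of these 4 calls was left. CYP71B26 also lost its call when any of 15 single arrays was left out (highest adjusted p = 0.10). CYP71B34, CYP71B6 and CYP71B28 kept theirs whichever single array was left out. Between large and small polysomal RNA 4 of 10 were called, at a background of 55.5%. CYP71B24 (-1.11), CYP71B34 (-0.43), CYP71B6 (-0.36) and CYP71B29 (-0.35) were lower on large polysomes (27.7% of all probe sets). For CYP71B24 and CYP71B29, which met the filter on 0 large polysomal arrays, this direction was favoured by the filter. Here 0 genes were called higher (27.8%) in limma, and 1, CYP78A9, had an unadjusted p under 0.05 in that direction (0.32 ± 0.15, adjusted p = 0.065). With the extract as a random block 6 were called, CYP78A9 (adjusted p = 0.041) and CYP71B5 (adjusted p = 0.038) being added as higher. With the extract as fixed terms neither was called (adjusted p = 0.070 for CYP78A9 and 0.054 for CYP71B5). The 55.5% of all probe sets was counted without a block and is no background for the 6. For CYP71B6 and CYP71B34 all 3 pairs of fractions were called, with large polysomal RNA lowest, small polysomal RNA next and non-polysomal RNA highest. Without replicate 1 the difference of CYP71B34 between large and small polysomal RNA was -0.25 and lost its call (adjusted p = 0.080), and that of CYP71B29 lost its call without replicate 2 (adjusted p = 0.10).

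The level of a transcript, taken as the mean of its 3 fractions, changed over the day for 10 of 10 genes in an F test over the 4 times, at a background of 86.6% of all probe sets. A level call of this kind is therefore the rule in these plants, and the genes are better told apart by the size and time of the change. The median range between the highest and the lowest of the 4 mean levels was 0.81 over the 10 genes and 0.71 over all probe sets. CYP71B26 and CYP71B35 had the widest ranges of the 10, 3.18 and 2.31, where the 95th percentile of all probe sets was 2.14. The highest mean level fell at 12pm for 5 genes (24.7% of all probe sets), at 6am for 3 (32.3%), at 6pm for 2 (23.4%) and at 12am for 0 (19.6%). For CYP78A9, CYP71B37, CYP71B29 and CYP71B24 the time of the highest level is partly set by the filter. In some genes the highest level was not set apart from the next in limma. These were CYP71B34 (6am and 12pm, adjusted p = 0.54), CYP71B29 (6pm and 12pm, 0.98) and CYP78A9 (12pm and 6pm, 0.41).

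CYP71B26 had levels of 8.07 ± 0.22 at 6am, 11.02 ± 0.13 at 12pm, 10.03 ± 0.19 at 6pm and 7.84 ± 0.21 at 12am (SD, n = 3 extracts). All 9 arrays at 12pm lay between 10.77 and 11.41, and all 9 at 6am between 7.64 and 8.75, so no fraction overlapped between these times. The 12pm level was 2.96 ± 0.12 above that at 6am (SE, adjusted p = 2.8e-19), or 7.76-fold. It fell by 0.99 at 6pm relative to 12pm. It fell by 2.19 at 12am relative to 6pm, and both steps were called. The 6am level was not set apart from that at 12am (0.22 ± 0.12, adjusted p = 0.12).

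CYP71B35 followed the same order of times. Its levels were 5.52 ± 0.23 at 6am, 7.52 ± 0.21 at 12pm, 6.80 ± 0.19 at 6pm and 5.20 ± 0.40 at 12am (SD, n = 3 extracts). The 9 arrays at 12pm ran from 7.26 to 7.85 and the 9 at 6am from 4.76 to 6.59, again without overlap. The 12pm level was 2.00 ± 0.16 above that at 6am (SE, adjusted p = 6.1e-12), or 4.01-fold, and the level fell by 0.72 at 6pm relative to 12pm and fell by 1.60 at 12am relative to 6pm, both called.

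CYP78A9, the growth-promoting family 78 enzyme, had levels of 4.27 ± 0.22 at 6am, 5.84 ± 0.20 at 12pm, 5.65 ± 0.10 at 6pm and 4.50 ± 0.04 at 12am (SD, n = 3 extracts). All 18 arrays at 12pm and 6pm were at 5 or more and none of the 18 at 6am and 12am was, so the filter passed this gene through the times at which it was high. The 12pm level was 1.57 ± 0.17 above that at 6am (2.98-fold), and the 12am level 1.15 ± 0.17 below that at 6pm. Its low side sits at the shared value near 4.47, and the fold may understate the change.

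CYP71B28 rose by 0.97 ± 0.07 at 12pm relative to 6am (1.96-fold) and fell by 0.72 ± 0.07 at 12am relative to 6pm (SE for both). The SD between extracts was at most 0.10 at any time. CYP71B37 rose by 0.64 ± 0.12 and CYP71B29 by 0.34 ± 0.11 at 12pm relative to 6am, on values near 5 that passed the filter mainly at 12pm. The call of CYP71B29 was lost without replicate 1 and without replicate 2 (adjusted p = 0.079 and 0.11).

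CYP71B6, CYP71B34 and CYP71B24 had their highest level at 6am. CYP71B6, the indole-3-acetonitrile enzyme, had levels of 9.54 ± 0.15 at 6am, 9.17 ± 0.11 at 12pm, 8.98 ± 0.16 at 6pm and 8.98 ± 0.08 at 12am (SD, n = 3 extracts). Its 6am level was 0.56 ± 0.10 above that at 12am (SE, adjusted p = 2.0e-05), and its 12pm level 0.36 ± 0.10 below that at 6am. CYP71B34 was 0.54 ± 0.12 higher at 6am than at 12am and 0.48 ± 0.12 lower at 6pm than at 12pm. Its 12pm level was not set apart from that at 6am (-0.08, adjusted p = 0.54). CYP71B24 had levels of 5.02 ± 0.26 at 6am, 4.23 ± 0.55 at 12pm, 3.84 ± 0.23 at 6pm and 4.10 ± 0.51 at 12am (SD, n = 3 extracts), and its 12pm level was 0.79 ± 0.24 below that at 6am, while its 6am level was 0.92 ± 0.24 above that at 12am. Of the 7 arrays of CYP71B24 at 5 or more, 5 were from 6am. The filter thus favoured its higher level at 6am, and these differences in time are given as a description. Without replicate 3 both calls of CYP71B24 were lost (adjusted p = 0.075 and 0.068), as was the call of CYP71B6 at 12pm relative to 6am (adjusted p = 0.080). CYP71B5 stayed within a range of 0.36 over the day, with levels of 8.29 at 6am, 7.99 at 12pm, 8.33 at 6pm and 7.97 at 12am.

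**Figure D3:**
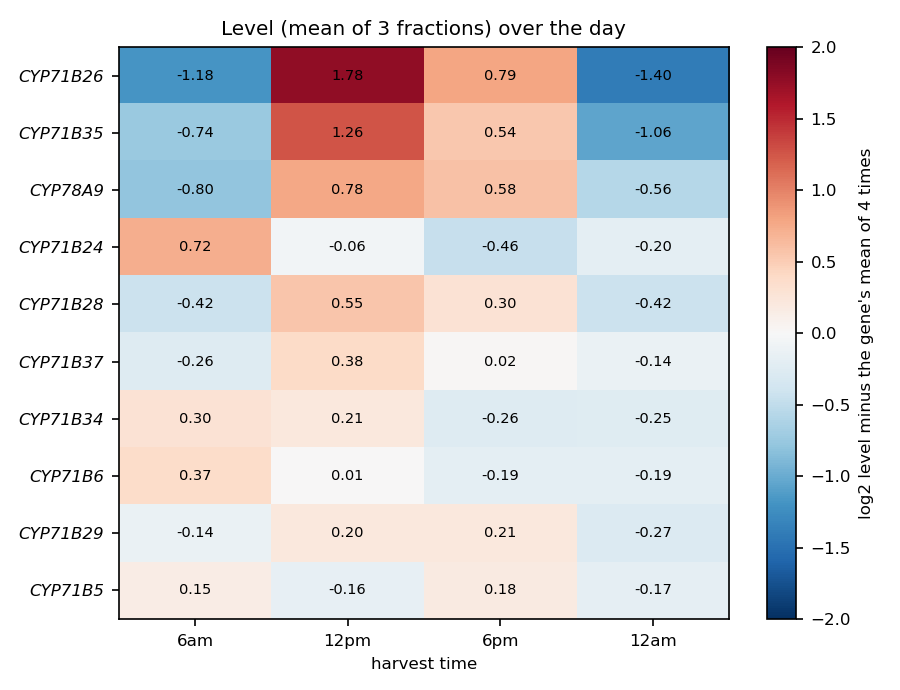
Level of the 10 P450 genes (rows, widest range at the top) at the 4 harvest times (columns), as log2 level minus the mean of the 4 times of that gene, printed in each cell and coloured by the scale at the right. CYP71B26, CYP71B35 and CYP78A9 are above their mean at 12pm and 6pm and below it at 6am and 12am, and CYP71B24 is highest at 6am.

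By steps, 9 of 10 genes were called between 12pm and 6am, at a background of 66.7%. Of these 6 were higher at 12pm (32.6% of all probe sets) and 3, CYP71B24, CYP71B6 and CYP71B5, were lower (34.1%). The tenth was CYP71B34, with -0.08 ± 0.12. Of the 6 higher genes CYP78A9, CYP71B37 and CYP71B29 met the filter mainly or wholly through 12pm and 6pm arrays. Among the 3 lower genes CYP71B24 met it mainly through 6am arrays. Leaving out a replicate number gave 6 to 8 calls: the 3 lower genes lost theirs without replicate 3 (adjusted p = 0.089 for CYP71B5), and CYP71B29 lost its call without either of the others. Between 6pm and 12pm 6 were called, at a background of 30.6%: CYP71B26, CYP71B35, CYP71B34, CYP71B37 and CYP71B28 were lower at 6pm (15.6% of all probe sets) and CYP71B5 was higher (15%). CYP71B37 met the filter on 8 arrays at 12pm and 3 at 6pm, which favoured its direction. Between 12am and 6pm 6 were called, at a background of 58.9%, and all 6 were lower at 12am (30.3%): CYP71B26, CYP71B35, CYP78A9, CYP71B28, CYP71B29 and CYP71B5. Of these, CYP78A9 had 9 arrays at 5 or more at 6pm and 0 at 12am, and CYP71B29 had 1 and 0. The filter favoured the lower side at 12am for both. Between 6am and 12am 4 were called, at a background of 48.6%, and all 4, CYP71B24, CYP71B6, CYP71B34 and CYP71B5, were higher at 6am (25.1%). The filter favoured this direction for CYP71B24, which had 5 arrays at 5 or more at 6am and 1 at 12am. In the last 2 steps 0 genes were called the other way in limma, against 28.7% and 23.4% of all probe sets, and 0 had an unadjusted p under 0.05 there.

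These level tests take the arrays of an extract's 3 fractions as independent, although they deviate together. With the extract as a random block, which takes up this shared deviation, the F test still called 10 of 10 genes. The calls between 6pm and 12pm dropped to 3, with CYP71B5, CYP71B28 and CYP71B37 lost (adjusted p = 0.084, 0.091 and 0.13), and CYP71B5 was also lost between 12pm and 6am (adjusted p = 0.0504) and between 6am and 12am (adjusted p = 0.061). The call of CYP71B37 between 6pm and 12pm was also lost when any of 7 single arrays was left out (highest adjusted p = 0.069).

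Loading, that is the value in large polysomal RNA less that in non-polysomal RNA of the same extract, was compared between the times next. In an F test over the 4 times 1 of 10 genes was called, CYP71B35 (adjusted p = 0.026), at a background of 12.7%. At 6am CYP71B35 had 4.79, 4.76 and 5.35 in large polysomal RNA, against 5.55, 6.39 and 6.59 in non-polysomal RNA, with no overlap. At 12am it had 5.72, 5.33 and 5.17 in large polysomal RNA, against 5.20, 5.05 and 4.79 in non-polysomal RNA. The lower side at each of these times lay near the filter at 5. Its means were 4.97 in large polysomal RNA at 6am and 5.01 in non-polysomal RNA at 12am. Its loading was -1.21 ± 0.43 at 6am, 0.13 ± 0.16 at 12pm, -0.08 ± 0.08 at 6pm and 0.39 ± 0.12 at 12am (SD, n = 3 extracts), so the 3 loadings at 6am lay below the 9 others.

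Loading of CYP71B35 was 1.34 ± 0.40 higher at 12pm than at 6am (SE, adjusted p = 0.040, 6.81% of all probe sets called) and 1.60 ± 0.40 higher at 12am than at 6am (adjusted p = 0.014, 8.5%). The differences held in 3 of 3 replicate numbers. Between 6pm and 6am the difference was 1.13 ± 0.40 and was not called (adjusted p = 0.054). The F test lost its call when single arrays were left out, with an adjusted p of 0.080 without the first and 0.084 without the second 6am large polysomal array, and of 0.072 without the second and 0.10 without the third 6am non-polysomal array. It was lost as well without any 1 of the 3 replicate numbers (adjusted p = 0.066, 0.45 and 0.092).

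CYP71B26 showed a smaller shift at the same time of day. Its loading was -0.61 ± 0.46 at 6am, -0.19 ± 0.36 at 12pm, 0.21 ± 0.25 at 6pm and -0.12 ± 0.12 at 12am (SD, n = 3 extracts). Only the difference between 6pm and 6am passed, with 0.82 ± 0.29 (SE, adjusted p = 0.049, 15.9% of all probe sets called), and the F test over the 4 times did not (adjusted p = 0.19). With the extract as a random block, which removes deviations that the fractions of an extract share, 4 genes were called in that F test: CYP71B35, CYP71B5 (adjusted p = 0.013), CYP71B26 (0.038) and CYP71B37 (0.046). With the extract as fixed terms the same 4 were called, CYP71B5 at an adjusted p of 0.026. The share of all probe sets called with either block was not counted, so the 12.7% without a block is no background for these 4. The loading of CYP71B5 was 0.03 ± 0.50 at 6am, 0.71 ± 0.21 at 12pm, 0.29 ± 0.22 at 6pm and -0.05 ± 0.12 at 12am (SD, n = 3 extracts). That of CYP71B37 was 0.09 ± 0.17 at 6am, 0.25 ± 0.47 at 12pm, 0.29 ± 0.21 at 6pm and -0.44 ± 0.25 at 12am (SD, n = 3 extracts).

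For the other 6 genes the F test of loading over the day did not pass with or without the block. CYP71B34 stayed between -1.07 and -0.48 and CYP71B6 between -0.78 and -0.25 at the 4 times. CYP71B24 had a mean loading of -0.84 at 6am, from extracts of -1.13, 0.38 and -1.77, and of -1.64 ± 0.08 at 12am (SD, n = 3 extracts).

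**Figure D4:**
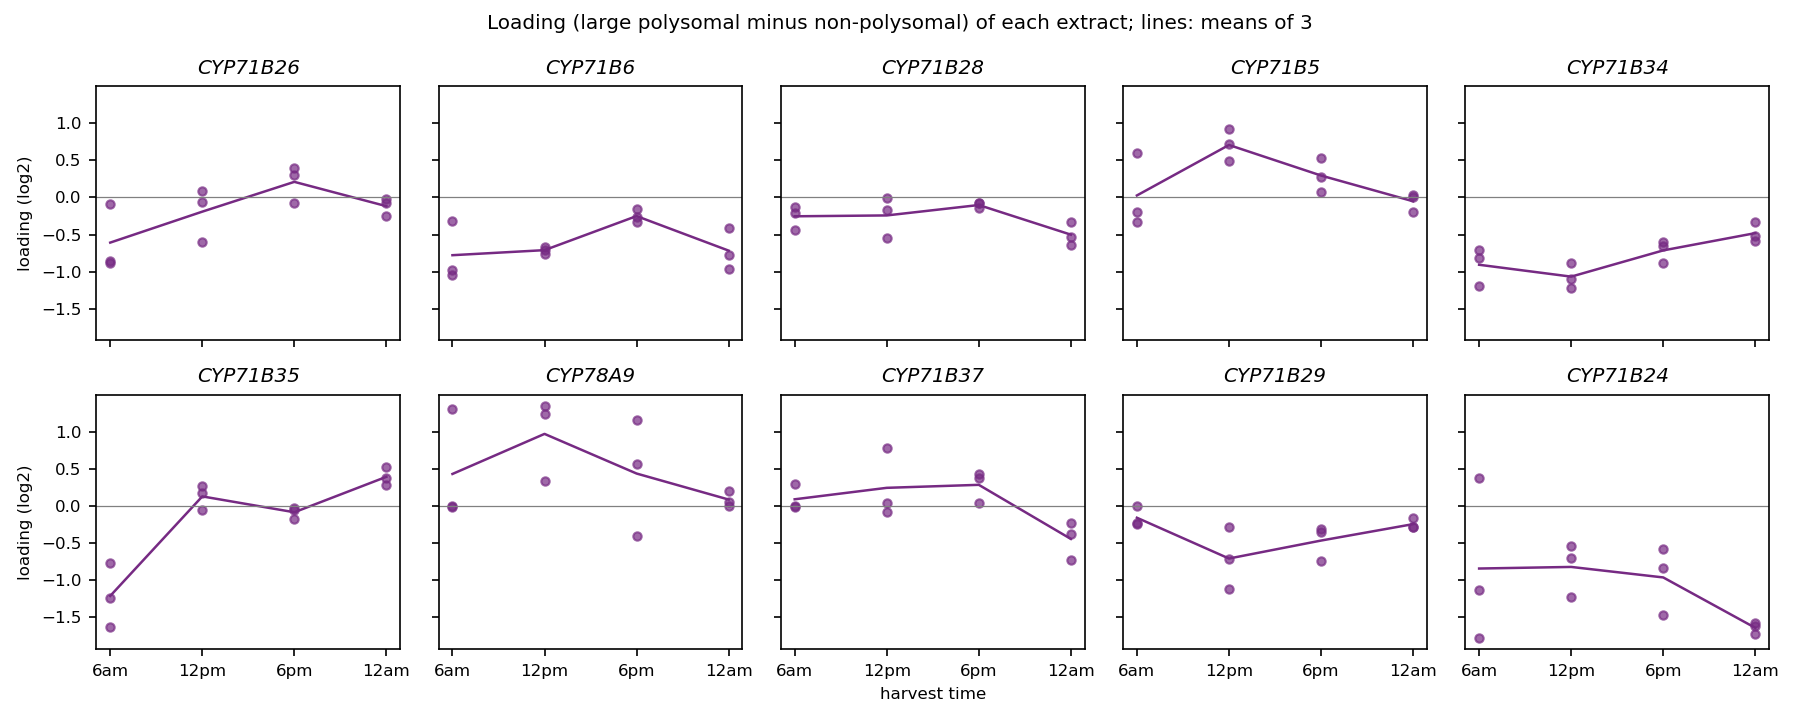
Loading, the large polysomal minus non-polysomal log2 value (y axis, shared by all panels), of the 10 P450 genes at the 4 harvest times (x axis). Dots are the 3 extracts of a time and lines join their means. The 3 extracts of CYP71B35 at 6am, between -1.63 and -0.76, lie below its other 9, and those of CYP71B34 are below 0 at every time.

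Most of the measured CYP71B genes lie in runs of neighbours, and in the largest run the genes had different daily courses and different shares on large polysomes. In the gene order of RefSeq (assembly TAIR10.1) the stretch of chromosome 3 from CYP71B16 to CYP71B37 holds 25 genes, of which 18 are CYP71B genes. A probe set of their own was named for 11 of these. Of the 11, 5 passed the filter (CYP71B24, CYP71B26, CYP71B34, CYP71B35 and CYP71B37) and 6 missed it. CYP71B34, CYP71B35, CYP71B36 and CYP71B37 follow each other with 0 genes between them, and 1 gene separates CYP71B26 from CYP71B34.

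Within this block the daily courses were not alike. At 12pm relative to 6am CYP71B26 (locus AT3G26290) was higher by 2.96 (95% interval 2.72 to 3.19) and CYP71B35 (AT3G26310) by 2.00 (1.67 to 2.34). CYP71B34 (AT3G26300), which lies between these, differed by -0.08 (-0.32 to 0.15), CYP71B37 (AT3G26330) by 0.64 (0.39 to 0.89) and CYP71B24 (AT3G26230) by -0.79 (-1.27 to -0.30). The filter favoured the directions of the last 2 genes, which are given as a description. CYP71B37 met it on 8 arrays at 12pm and 0 at 6am, and CYP71B24 on 1 at 12pm and 5 at 6am. The contrast in daily course therefore rests on CYP71B26, CYP71B34 and CYP71B35. CYP71B36 (AT3G26320), between CYP71B35 and CYP71B37, never exceeded 3.26. The intervals of CYP71B26, CYP71B34 and CYP71B35 do not overlap one another, and the difference between genes was not tested beyond that.

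The fractions also set the neighbours apart. CYP71B34 differed by -0.79 on large polysomes (95% interval up to -0.59), while CYP71B35 differed by -0.19 (-0.48 to 0.10) and CYP71B26 by -0.18 (-0.38 to 0.03). On chromosome 1 CYP71B28 (AT1G13090) and CYP71B29 (AT1G13100) follow each other directly. Both had lower values on large polysomes and higher values at 12pm than at 6am. For CYP71B29 the filter favoured both directions, since it was met on 0 large polysomal arrays, on 3 arrays at 12pm and on 0 at 6am. The values of CYP71B29 are therefore given as a description. CYP71B5 (AT3G53280) is followed by CYP71B30P and, with 2 genes between, by CYP71B31, and neither of these ever exceeded 2.16. CYP71B6 (AT2G24180) and CYP78A9 (AT3G61880) have no measured P450 beside them. Names of all 23 probe sets end in the plain suffix that the array maker gives to sets designed against 1 transcript, but cross-hybridisation between CYP71B genes was not tested.

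**Figure D5:**
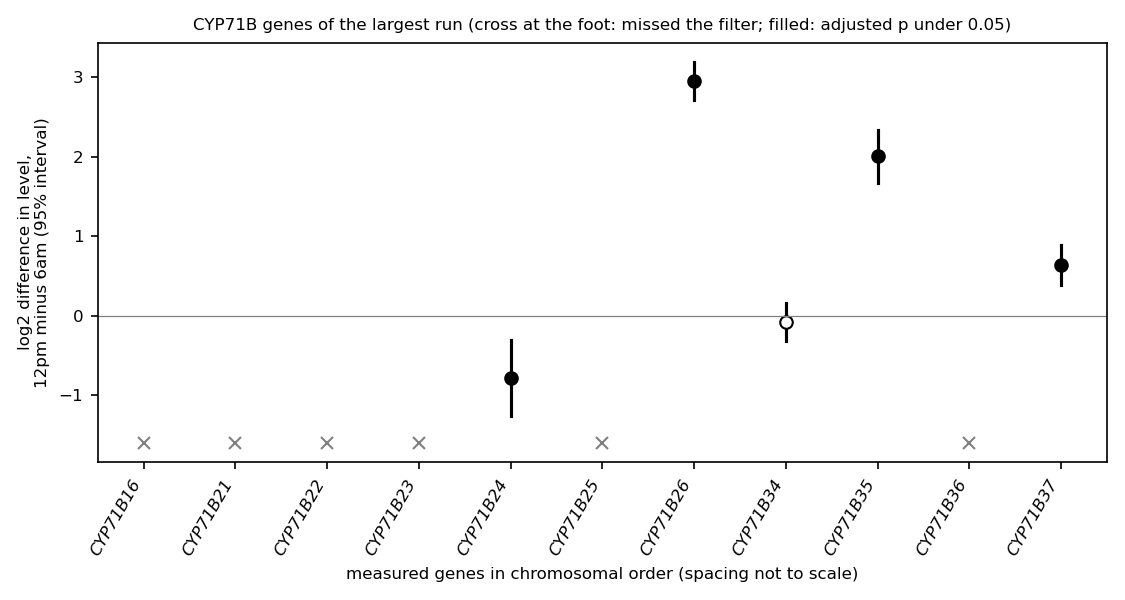
Log2 difference in level, 12pm minus 6am (y axis), for the 11 CYP71B genes of the chromosome 3 stretch that have a probe set of their own, in gene order (x axis, spacing not to scale). Points are estimates with 95% intervals, filled where the adjusted p is under 0.05, and crosses at the foot mark genes that missed the filter and have no value here. CYP71B26 at 2.96 and CYP71B35 at 2.00 stand on either side of CYP71B34 at -0.08. The filter favoured the directions of CYP71B37 and CYP71B24.

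The other genes of the pathways P450s serve were covered thinly, since the annotation names few of them. Of 36 genes of glucosinolate synthesis 3 were named and 2 passed the filter. Both were higher on large polysomes than in non-polysomal RNA, against 42.3% of all probe sets. UGT74B1, the glucosyltransferase, was higher by 1.35 ± 0.18 (SE, adjusted p = 6.2e-08). BCAT4, which starts methionine chain elongation, was higher by 0.68 ± 0.26 (adjusted p = 0.018). Both changed over the day, against 86.6% of all probe sets, with the highest level at 6pm. With such backgrounds 2 genes give no result about the pathway. Of 33 genes of phenylpropanoid and flavonoid synthesis 3 were named and HCT, a hydroxycinnamoyl transferase, was the 1 that passed. It was lower on large polysomes by 0.31 ± 0.06, a direction called for 37.8% of all probe sets. The list of P450 redox partners, with the reductases and cytochromes b5, had 0 named members of 15, and those of brassinosteroid, gibberellin, abscisic acid and jasmonate metabolism had 0 of 24, 22, 14 and 19. For these lists nothing was analysed here.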

How the data were processed

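Each of 36 arrays (Affymetrix, biotinylated cRNA from oligo(dT)-primed cDNA, per the labels) holds 1 fraction of 1 extract. Each probe set has a deposited log2 expression value, which the authors made with GCRMA in R 3.1 with affy 1.42.3, per the submitters' processing notes; other settings are not given in the sources used here. Control probe sets (64) were left out, and probe sets at 5 or above on 3 or more arrays were kept (12635, of which 6824 name 1 gene). Names come from GEO's platform annotation, and gene order from RefSeq.

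Linear models were fitted with limma 3.58.1 (lmFit and eBayes) in R 4.3.3 to 12 group means, which left 24 residual degrees of freedom. P-values were adjusted over all 12635 probe sets after Benjamini and Hochberg, and called under 0.05. The model was tested on simulated data. Level is the mean of 3 fractions, and loading the value in large polysomal less that in non-polysomal RNA. SEs come from the moderated model. Plots used matplotlib 3.10.9 (Python 3.11.15).

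Equal replicate numbers at a time were taken to pair the fractions of 1 extract. After group means were removed, all 36 such pairs correlated above 0.1 (median r = 0.42). Of 54 pairs with the same number and fraction but different times, 33 did so too (median r = 0.15). The numbers thus carried some shared deviation across times, which the main tests between times do not take up. Correlation alone does not settle the pairing. In alternatives the extract was a block, either random (consensus correlation 0.355) or as fixed terms. Background shares of all probe sets were counted in the fit without a block alone, and not in any alternative. No arrays held identical values. Every member may be named, and values by array are given for the largest differences between large polysomal and non-polysomal RNA, the widest ranges of level and the calls in loading. The lists cover glucosinolates, camalexin and indoles, brassinosteroids, gibberellins, abscisic acid, jasmonate, cytokinin and strigolactone, phenylpropanoids, cutin and wax, sterols and carotenoids, organ size, terpenoids, iron, redox partners, and markers of leaf, root, stomata and seed. The members and the lists were chosen with earlier results of these data known.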

Additional observations from a re-analysis of the deposited data

Results flagged for a closer look

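Loading of CYP71B35 differed between harvest times by a test of the difference itself, with a range of 1.60 between its lowest mean, at 6am, and its highest, at 12am. The pairwise differences that passed were 1.34 at 12pm relative to 6am and 1.60 at 12am relative to 6am. For CYP71B26 the difference of 0.82 in loading at 6pm relative to 6am passed as well. In each of these comparisons 6am is the lower side. The part of single 6am arrays in these calls is given by the values without them for CYP71B35. For CYP71B26, whose 6am loadings were -0.08, -0.88 and -0.86, the F test over the 4 times was called without the first replicate number (adjusted p = 0.023), which gave the loading nearest to 0. That F test was not called with all arrays (adjusted p = 0.19), and its adjusted p reached 0.84 without another replicate number. The pairwise difference between 6pm and 6am was not run with arrays left out.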

How the results depend on the processing

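Over 17 alternatives, 1104 comparisons of single values gave 982 with the direction and side of the threshold kept, 74 lost calls, 26 gained calls and 22 turned directions; the cause was not tested. When arrays were shifted so that 12 probe sets for poly(A) spike-ins had equal means, the median of all probe sets in large minus non-polysomal RNA was 2.70, against 0.05 as deposited. Large minus non-polysomal then turned positive for CYP71B26 (2.47), CYP71B35 (2.46), CYP71B28 (2.37), CYP71B29 (2.26), CYP71B6 (2.04), CYP71B34 (1.86) and CYP71B24 (1.58), all below that median. Relative to the median, CYP78A9 stood at 0.43 and CYP71B5 at 0.19 on either scale. Small minus non-polysomal turned positive for CYP71B29 (1.01), CYP71B35 (0.97), CYP71B28 (0.83), CYP71B26 (0.83), CYP71B6 (0.81) and CYP71B34 (0.69). Large minus small turned positive for CYP71B28 (1.54), CYP71B35 (1.49), CYP71B29 (1.25), CYP71B6 (1.23), CYP71B34 (1.17) and CYP71B24 (0.48). The median of all probe sets also rose under the shift in each of these comparisons, and every value listed lay below it. CYP71B5 turned to 0.038 in 12pm minus 6am and CYP71B28 to 0.084 in 6pm minus 12pm, both not called. Each lay below the median of all probe sets under the shift, which had risen in these comparisons too. In large polysomal RNA alone CYP71B5 differed by 0.13 in 12pm minus 6am, also not called. Counts called under the spike-in shift were 10 for small minus non-polysomal, 9 for large minus small and 5 for 12pm minus 6am. They were 0 for 6pm minus 12pm, 6am minus 12am and loading, with 2, 1 and 0 at an unadjusted p under 0.05 in limma. The share of all probe sets called under the shift was not counted. These counts therefore have no background and are not a result about P450s. With a filter at 7, which leaves 6 genes, counts were 4 for large minus non-polysomal, 2 for large minus small, 5 for 12pm minus 6am and 6 for level. Between 6pm and 12pm 1 gene was called after averaging the fractions of an extract, and 1 in each fraction alone; 6am minus 12am had 2 in large polysomal RNA alone. Loading had 2 calls after quantile normalization, and 0 with no filter, with large and small minus non-polysomal and with large minus small, where 2, 2 and 0 genes had an unadjusted p under 0.05. With the replicate block for pairing, the extract as a random block gave 3 calls between 6pm and 12pm and 4 in loading, and fixed terms 4 in loading. Leaving out each replicate number gave 1 to 4 calls for small minus non-polysomal, 6 to 8 for 12pm minus 6am, 2 to 5 for 6pm minus 12pm, 2 to 5 for 6am minus 12am and 0 to 1 for loading (0 to 2 without single arrays, an alternative chosen after seeing the data). The mean of all probe sets of a gene was not run, since each gene has 1. Low values limit CYP71B24, CYP71B29, CYP71B37 and CYP78A9, and at 6am and 12am also the loading of CYP71B35.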

Other observations

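Of the lists that the text has not yet described, guard cell and stomatal markers had 3 named genes of 8, and FMA, a transcription factor of late guard cell development, was the 1 that passed the filter. Its difference between large polysomal and non-polysomal RNA was 0.06 ± 0.11, not called, and its level was highest at 6am. SPCH and MUTE, which act earlier in that lineage, never exceeded 2.24 and 2.75. Of the cutin, suberin and wax list WSD1, a wax ester synthase, was the 1 gene named and missed the filter, with a highest value of 4.54. DFR, of anthocyanin synthesis, never exceeded 2.24, and AOP3, of glucosinolate side chains, never exceeded 2.43. The lists of terpenoid and organ size P450s had 1 named member each, CYP71B31 and CYP78A9, and those of cytokinin and strigolactone, sterol and carotenoid and iron-related P450s and of seed markers had 0.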
